A study of Mus musculus with 24 samples.

Results

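The mitosis and G2/M genes are a set of 52 genes, chosen by symbol, that code for the machinery a cell uses to pass from the end of DNA replication through division. All 52 were among the 17464 genes of the expression table, matched by Ensembl identifier, and all 52 also passed the filter on low values that left 16630 genes for testing. They were followed in regulatory T (Treg) cells sorted from mouse spleen into resting (rTreg, CD62L+ CD44-), activated (aTreg, CD62L- CD44+) and KLRG1+ (kTreg) cells. The mice were wild type, of the strain C57BL/6JRccHsd, and the labels name no treatment. The young mice were 2 months old and the old mice 26 months old. Each of the 4 young and 4 old mice gave 1 library per subset, so the 24 libraries fell into 6 groups of 4, and the 3 libraries of a mouse share its number. The study used both sexes, and the sex of each mouse was not used here. The comparisons ask whether the expression of the division machinery differs between the 3 Treg subsets, and whether it differs with age.

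Division is prepared in waves of transcription. Genes for DNA replication are switched on by E2F factors at the start of S phase, and the genes of G2 and mitosis follow later, when the MuvB complex exchanges its repressive partners for B-MYB and FOXM1 at an element called CHR (cell cycle genes homology region). The products then act in order: cyclins and CDK1 start mitosis, the Polo and Aurora kinases build the spindle, kinetochores and the spindle checkpoint attach the chromosomes, the anaphase-promoting complex lets them part, and the central spindle guides cytokinesis. Because these mRNAs are made mainly in dividing cells, their level in a bulk sample is widely read as a sign of cycling cells. Treg cells are known to divide in the body, and aTreg cells are known for a higher turnover than rTreg cells.

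The promoters of the set are shown first, because they hold letters that many of its members share and that did not enter the choice of genes. RefSeq promoter windows of GRCm38.p6, from 250 bases before to 50 bases after a transcript start, were found for 40 of the 52 members, with 42 windows in all. The CHR (TTTGAA or TTCGAA, on either strand) was present in 35 of these windows, or 83.3%, against 19.2% of all 32851 windows. CCAAT, a box bound by the factor NF-Y, was present on either strand in 73.8% against 37.4%, and both motifs together in 69.0% against 7.52%. An E2F motif (TTTCCCGC, TTTGGCGC, TTTCGCGC or TTTGCCGC, on either strand) was rare in members as elsewhere, at 7.14% against 2.26%, and was found in *Cdk1*, *Cenpm* and *Kif15*. In windows of S phase and replication genes the shares were 18.2% for CHR and 33.3% for E2F, and in those of other mitotic genes 53.8% and 5.13%. The CHR matches of the members lay close to the start: 35 of 49 matches, or 71.4%, began within 50 bases of it, against 25.2% of the 7260 matches in all windows. CCAAT matches began farther upstream, at a median of -71 bases from the start, where those of CHR had a median of -9. The 7 members with a window and without a CHR were *Birc5*, *Ccnb1*, *Cenpe*, *Mybl2*, *Nuf2*, *Nusap1* and *Tacc3*, and these letters being absent from a window says nothing on what binds there.

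Printed below are the windows of the 5 most highly expressed members, per kilobase of exon, that hold both motifs. Each is given 5′ to 3′ along the gene, with CHR and CCAAT matches of either strand in capitals. In *Cdc20* (chr4:118437294-118437593, minus strand), which codes for an activator of the anaphase-promoting complex, the CHR stands between a pair of CCAAT boxes. In *Ccnb2* (chr9:70421505-70421804, minus strand), the gene of cyclin B2, 3 CCAAT boxes precede the CHR near the start, and a further CHR match lies upstream of them. In *Cdc25b* (chr2:131186698-131186997, plus strand), which codes for a phosphatase that activates CDK1, the CCAAT box is on the reverse strand. In *Ube2c* (chr2:164769679-164769978, plus strand), whose product passes ubiquitin to targets of the anaphase-promoting complex, there are 6 CCAAT matches and the CHR is on the reverse strand. In *Plk1* (chr7:122159185-122159484, plus strand), the gene of Polo-like kinase 1, the CHR lies downstream of the CCAAT box.
Cdc20: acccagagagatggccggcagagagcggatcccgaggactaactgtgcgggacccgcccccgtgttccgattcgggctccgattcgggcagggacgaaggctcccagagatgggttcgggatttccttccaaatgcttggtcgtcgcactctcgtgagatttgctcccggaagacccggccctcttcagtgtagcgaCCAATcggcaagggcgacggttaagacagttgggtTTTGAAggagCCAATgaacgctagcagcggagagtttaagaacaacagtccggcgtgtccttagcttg
Ccnb2: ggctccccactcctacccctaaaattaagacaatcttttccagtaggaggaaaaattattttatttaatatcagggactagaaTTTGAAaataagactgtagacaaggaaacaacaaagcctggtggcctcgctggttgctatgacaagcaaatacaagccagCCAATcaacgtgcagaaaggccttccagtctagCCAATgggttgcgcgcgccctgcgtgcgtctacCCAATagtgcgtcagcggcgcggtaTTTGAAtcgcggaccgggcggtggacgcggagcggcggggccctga
Cdc25b: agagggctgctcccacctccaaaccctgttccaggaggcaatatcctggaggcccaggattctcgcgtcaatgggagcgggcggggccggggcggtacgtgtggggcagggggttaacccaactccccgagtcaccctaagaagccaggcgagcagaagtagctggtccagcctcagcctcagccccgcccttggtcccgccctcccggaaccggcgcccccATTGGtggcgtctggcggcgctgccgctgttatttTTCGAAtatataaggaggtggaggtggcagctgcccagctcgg
Ube2c: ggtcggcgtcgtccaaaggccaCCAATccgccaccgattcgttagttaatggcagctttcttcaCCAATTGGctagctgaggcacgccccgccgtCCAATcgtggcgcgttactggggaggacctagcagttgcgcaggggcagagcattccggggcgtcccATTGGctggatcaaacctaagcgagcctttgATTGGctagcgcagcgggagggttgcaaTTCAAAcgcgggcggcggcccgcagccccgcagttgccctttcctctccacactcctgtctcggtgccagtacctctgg
Plk1: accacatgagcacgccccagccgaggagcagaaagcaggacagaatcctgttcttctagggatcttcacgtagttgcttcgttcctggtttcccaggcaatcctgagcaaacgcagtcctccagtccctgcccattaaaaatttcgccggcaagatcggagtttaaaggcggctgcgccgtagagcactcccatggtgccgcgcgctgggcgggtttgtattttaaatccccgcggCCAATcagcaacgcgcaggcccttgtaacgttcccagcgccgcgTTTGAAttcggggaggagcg

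**Figure D1:**
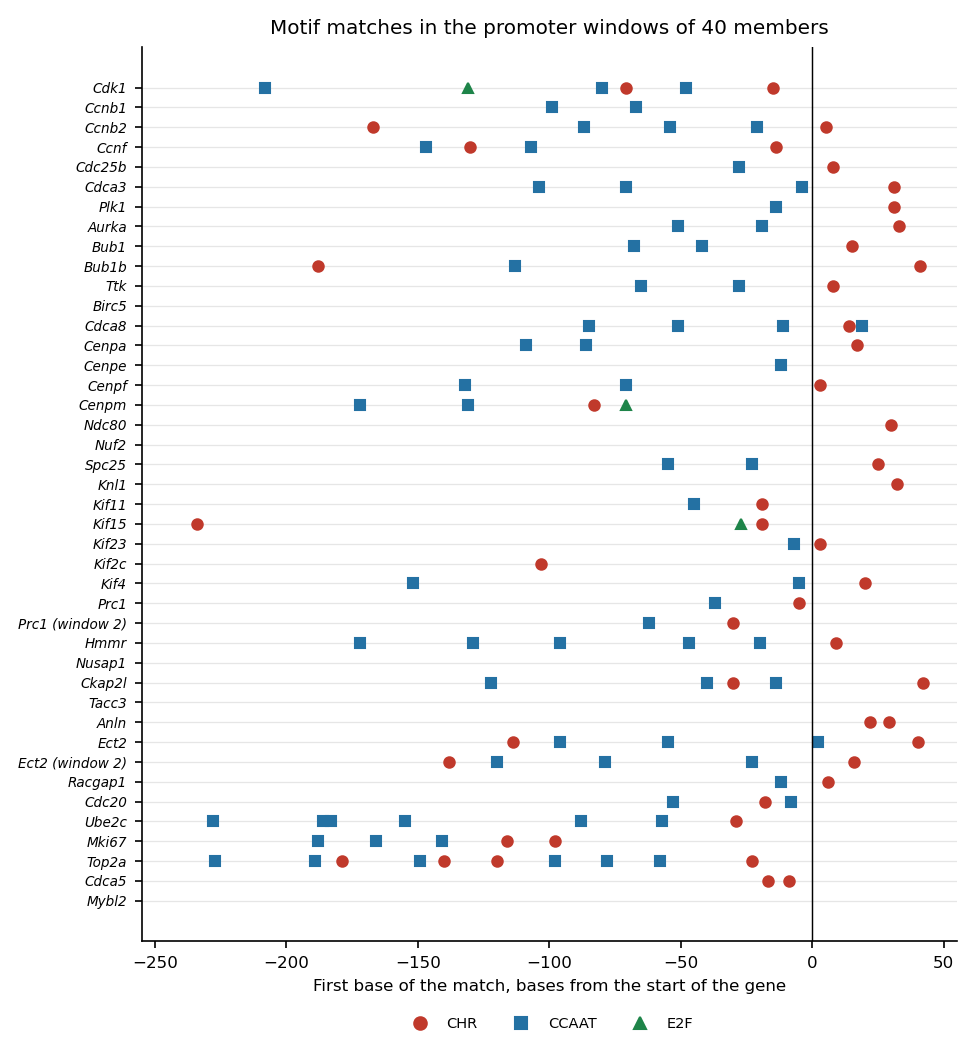
First base of each CHR (circles), CCAAT (squares) and E2F (triangles) match in the 42 promoter windows of 40 members, in bases from the start of the gene (vertical line at 0), with members in rows by role. CHR matches gather around the start (35 of 49 within 50 bases), CCAAT matches lie mostly upstream, and rows with no circle are the members without a CHR.

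Levels are given as normalised read counts, that is, reads of a gene divided by 1 size factor per library, with reads on listed genes between 15045747 and 29521942 per library. The libraries were made by PCR from small amounts of RNA without molecular identifiers, so their reads are not independent molecules and limits from counts cover counting error only. Tests compared log2(value + 1) between groups with limma (two-sided, p adjusted over the 16630 genes by the Benjamini-Hochberg method). A called gene had an adjusted p under 0.05 together with a fold change over 1.5. Counts from other models, or without a library or mouse, are given without the share of all genes called there. The summed level of 6 Treg identity genes was between 47593 and 110382 in every library, with *Foxp3* above 0 throughout. A few libraries stood apart. The 4 old rTreg libraries listed 1855, 1215, 2642 and 2756 genes at 0, and what this meant for their member levels was not tested. All others but 1 listed 419 to 1241. That 1, the kTreg library of young mouse 4, listed 4913 genes at 0. The members *Ccnf*, *Kif4*, *Hmmr* and *Anln* were among those genes, which allows a value of up to 2.75 each (3 reads). Its values for *Bub1b*, *Kif23* and *Cenpf* were at the same time the highest of its group, at 2739, 1838 and 1004. All 3 libraries of young mouse 2 carried B cell genes, with sums of 15803 (rTreg), 8760 (aTreg) and 6962 (kTreg) against 871 to 2064 in the other young mice, and its kTreg library had a macrophage and monocyte sum of 32489. The aTreg library of old mouse 2 had the lowest Treg identity sum (47593) and the highest member levels of the old aTreg group.

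The set was not expressed evenly. Its members took the largest share of reads in old rTreg cells and the smallest in aTreg cells of either age. In old rTreg cells the 4 libraries gave 0.345%, 0.381%, 0.421% and 0.373% of reads to the 52 genes (0.380% ± 0.0315, SD, n = 4). Young kTreg cells followed with 0.452%, 0.230%, 0.274% and 0.271% (0.307% ± 0.0987). The widest relative spread was in young rTreg cells, where mice 1 and 2 gave 0.213% and 0.251% and mice 3 and 4 gave 0.0973% and 0.0887% (0.162% ± 0.0817). Old kTreg cells lay at 0.160% ± 0.0231, with libraries between 0.127% and 0.182%. Young and old aTreg cells were lowest, at 0.0932% ± 0.0108 and 0.104% ± 0.0188. Gene by gene, the mean was highest in old rTreg cells for 43 members and in young kTreg cells for the other 9. The 9 were *Bub1b*, *Ttk*, *Incenp*, *Cenpf*, *Nuf2*, *Kif23*, *Racgap1*, *Cdca2* and *Esco2*. For *Bub1b*, *Ttk*, *Cenpf*, *Nuf2* and *Kif23* the highest young kTreg value was in mouse 4, whose library listed 4913 genes at 0. Their rank rests in part on that library. The mean was lowest in young aTreg cells for 42 members and in old aTreg cells for 10. In bulk samples, fewer dividing cells and less of each mRNA per cell cannot be told apart.

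**Figure D2:**
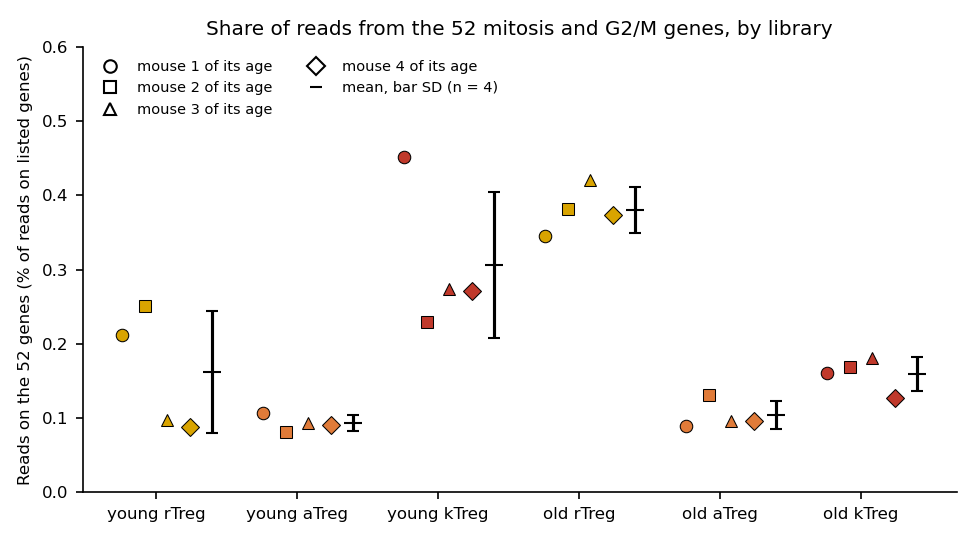
Share of reads on listed genes (%) taken by the 52 mitosis and G2/M genes in each library, by group, with the mean and SD (n = 4). Old rTreg libraries (0.345% to 0.421%) do not overlap those of aTreg cells (0.0808% to 0.132% over both ages), and the young rTreg libraries lie in a higher and a lower pair.

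**Figure D3:**
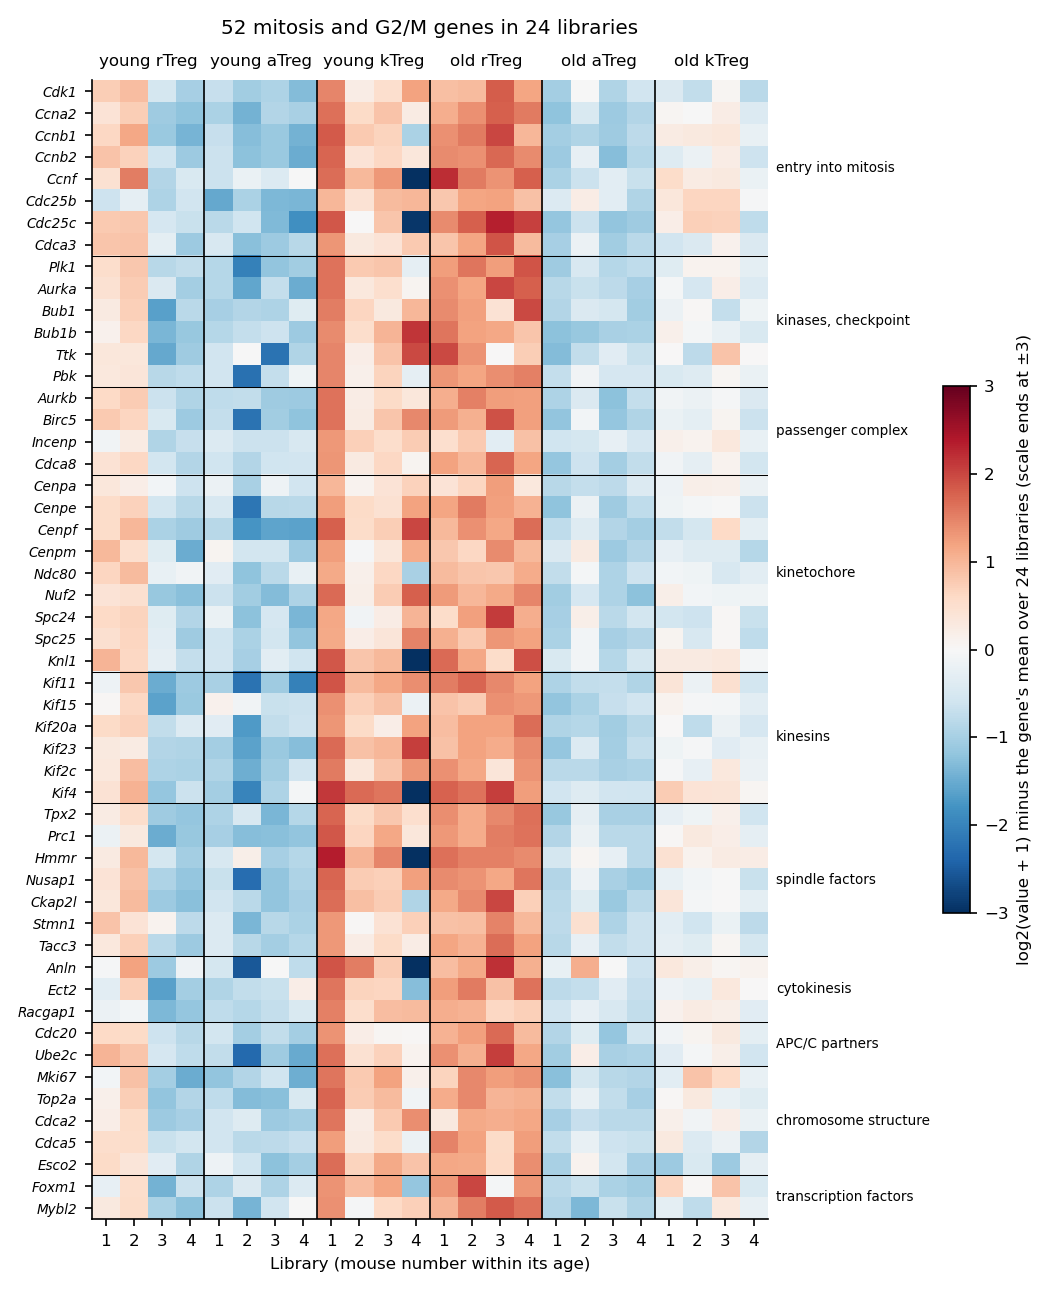
Deviation of each member from its mean over the 24 libraries (log2 scale), with members in rows by role and libraries in columns by group. Old rTreg and young kTreg libraries lie above the mean for most members, aTreg libraries below it, and the dark blue squares in young kTreg 4 are the members listed at 0 there and the low values of *Cdc25c* and *Knl1*.

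The markers of the set were high in old rTreg and young kTreg cells, whose ranges overlapped, and low in aTreg cells. *Mki67* (chr7:135291513-135318299 on GRCm39, minus strand) codes for Ki-67, which coats mitotic chromosomes and is the usual label of cycling cells. Its normalised read count was 1055, 1822, 1579 and 1699 in old rTreg cells and 2016, 1148, 1538 and 739 in young kTreg cells. Young rTreg cells had 633, 1231, 329.6 and 236, and old kTreg cells 532, 1204, 1012 and 572. The lowest values were in aTreg cells, at 293, 363, 440.5 and 241 in the young and 278, 459, 372 and 362 in the old. The young kTreg and old rTreg libraries all lay above all aTreg libraries of both ages. *Top2a* (chr11:98883769-98915062 on GRCm39, minus strand), which codes for the topoisomerase that untangles sister chromatids, stood at 3055, 3800.4, 2844 and 2944 in old rTreg cells and at 4705, 2381, 2710.4 and 1302 in young kTreg cells. Young rTreg cells had 1572, 2346, 621 and 762, and old kTreg cells 1434.5, 1717, 1196 and 1091. In aTreg cells *Top2a* lay between 566 and 1019 in the young and between 703 and 1197 in the old. The aTreg range of each age was below every young kTreg and every old rTreg value.

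Per kilobase of exon, mean levels over all libraries ran from 743 for *Stmn1*, which codes for the microtubule-destabilising protein stathmin, to 11.6 for *Anln*, the gene of anillin, a scaffold of the contractile ring. After *Stmn1* came *Cdc20* (524) and *Ccnb2* (487), so a spindle factor, an anaphase-promoting complex activator and a mitotic cyclin led the set on this scale.

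In young mice, kTreg cells expressed most of the division machinery at a higher level than aTreg cells. Of the 52 members, 41 were called higher and none lower, where 3.46% of all tested genes were called higher. The median log2 fold change of the members was 1.67, against -0.12 for all genes, and 37 members had no overlap between the 4 kTreg and the 4 aTreg libraries, as did 6.67% of all genes in this direction. The kTreg library exceeded the aTreg library of the same mouse for 52 members in mice 1, 2 and 3 and for 42 in mouse 4. All 6 mitotic kinases and checkpoint genes, all 4 members of the chromosomal passenger complex, all 5 genes of chromosome structure and cohesion and both partners of the anaphase-promoting complex rose. Of the other roles, 6 of 8 entry genes, 6 of 9 centromere and kinetochore genes, 4 of 6 kinesins, 6 of 7 spindle factors, 1 of 3 cytokinesis genes and 1 of the 2 transcription factors were called higher. The 11 members not called were *Foxm1*, *Hmmr*, *Ndc80*, *Knl1*, *Ect2*, *Kif4*, *Kif15*, *Anln*, *Cdc25c*, *Cenpm* and *Ccnf*. Several of these had their low value in the kTreg library of mouse 4, and without that library 49 members were called.

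The smallest p of the set belonged to *Cdc25b*, one of the entry genes. It stood at 5554, 3771, 5425 and 5600.3 in young kTreg cells and at 962, 1439, 1094 and 1071 in young aTreg cells. The difference was 2.15 ± 0.21 (log2 fold change ± SE, limma, adjusted p = 1.29e-06), a fold of 4.45. *Ccnb2* was 2802, 1124, 1300.2 and 1057 against 541, 358, 387 and 301, a log2 difference of 1.89 ± 0.36 (limma, adjusted p = 0.00182). *Ccnf*, the gene of cyclin F, had kTreg values of 1127, 695, 874 and 0 and the lowest fold change of the set, and its difference of -0.81 ± 1.33 was not called (limma, adjusted p = 0.761). Genes of spindle motors were among the largest changes. *Kif11* codes for the kinesin that pushes spindle poles apart and was 2169, 1144, 1316 and 1558 in young kTreg cells against 299.7, 126, 282 and 145 in young aTreg cells. Its log2 difference of 2.92 ± 0.38 was the highest of the set (limma, adjusted p = 4.42e-05, a fold of 7.55). *Kif23*, whose product joins that of *Racgap1* in the centralspindlin complex of the dividing cell, was 1437, 807, 882 and 1838 against 215, 144, 201 and 181. It rose by 2.67 ± 0.29 (limma, adjusted p = 5.2e-06), and *Racgap1* by 1.68 ± 0.24 (limma, adjusted p = 0.000132). No kTreg library overlapped an aTreg library for either gene.

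Members of the remaining roles rose as well. *Plk1* rose by 2.02 ± 0.37 (limma, adjusted p = 0.00116) and *Birc5*, the gene of survivin in the passenger complex, by 2.33 ± 0.39 (limma, adjusted p = 0.000602). *Prc1*, whose product bundles microtubules at the spindle midzone, rose by 2.19 ± 0.32 (limma, adjusted p = 0.000166), from 281 ± 25.3 to 1389 ± 673 (SD, n = 4). *Spc24*, a subunit of the NDC80 kinetochore complex, rose by 1.41 ± 0.39 (limma, adjusted p = 0.0288), and *Cenpf*, a large outer kinetochore protein gene, by 2.71 ± 0.42 (limma, adjusted p = 0.000298). *Stmn1* rose by 1.503 ± 0.33 (limma, adjusted p = 0.00494), *Cdc20* by 1.24 ± 0.31 (limma, adjusted p = 0.0154) and *Kif20a*, the gene of a kinesin of the central spindle, by 1.68 ± 0.32 (limma, adjusted p = 0.00178). *Mki67* and *Top2a* rose by 1.96 ± 0.40 (limma, adjusted p = 0.00291) and 1.79 ± 0.36 (limma, adjusted p = 0.0025). Of the transcription factors, *Mybl2*, the gene of B-MYB, rose by 1.32 ± 0.38 (limma, adjusted p = 0.0348). Leaving out any library or mouse kept the count between 31, without young mouse 1, and 49. Without young mouse 2, whose libraries carry B cell and macrophage genes, 37 members were called. Macrophage and monocyte genes summed to 1118, 32489, 908 and 61 in young kTreg and to 246, 3227, 249 and 94 in young aTreg cells, with a median log2 fold change of 2.29 and 6 of 8 genes above 0, and their part in the member values was not tested.

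**Figure D4:**
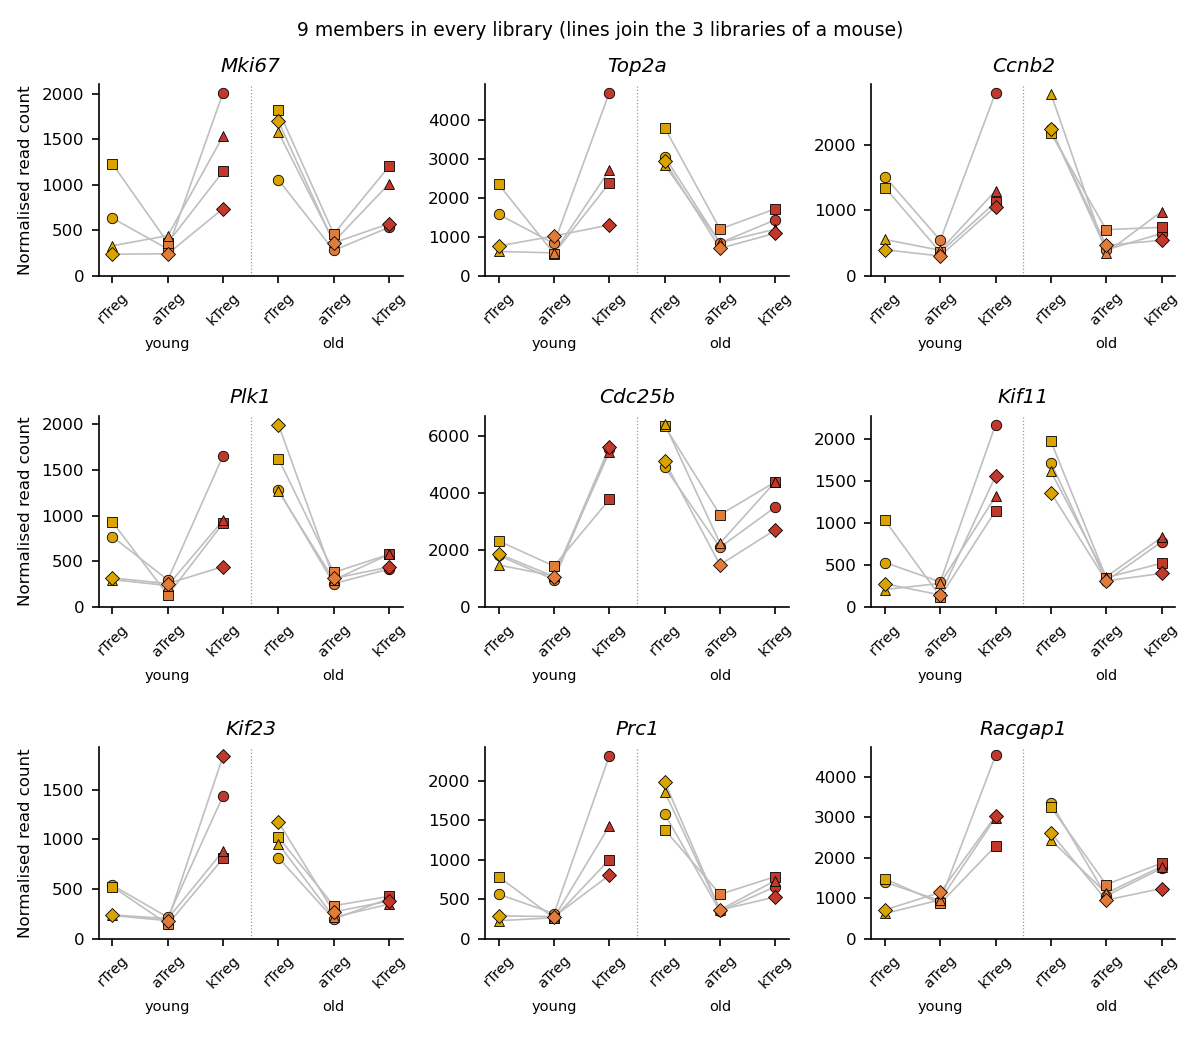
Normalised read counts of 9 members in every library by group, on a linear axis from 0, with lines joining the 3 libraries of a mouse. For *Cdc25b*, *Kif11* and *Kif23* the young kTreg libraries all lie above the young aTreg libraries, and the old rTreg libraries all lie above the old kTreg libraries.

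**Figure D5:**
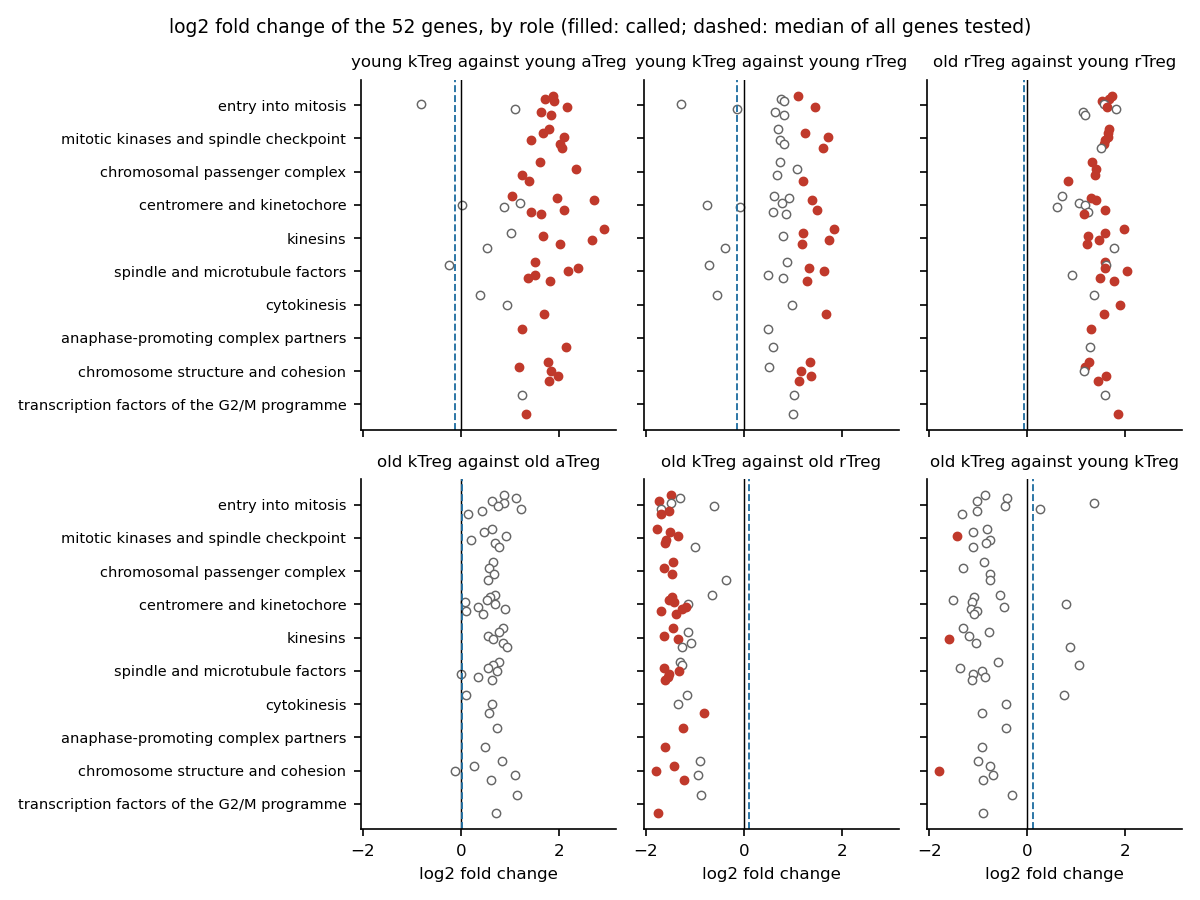
Log2 fold change of each member in 6 comparisons, by role, with filled red points for members called (limma, adjusted p below 0.05 and fold above 1.5) and a dashed line at the median of all genes. Most points lie above that line for young kTreg against aTreg cells (41 called) and for old against young rTreg cells (35 called), and below it for old kTreg against rTreg cells (34 called).

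Against young rTreg cells, 20 members were called higher in young kTreg cells and none lower, beside 8.24% of all genes called higher. The median log2 fold change was 0.86 (all genes -0.14). Kinesins (4 of 6) and genes of chromosome structure and cohesion (4 of 5) were called most often, and neither partner of the anaphase-promoting complex was. *Cdc25b* rose by 1.45 ± 0.21 (limma, adjusted p = 2.74e-05) from 1810.2, 2315, 1474 and 1863 in young rTreg cells. *Racgap1* rose by 1.67 ± 0.24 (limma, adjusted p = 3.05e-05) and *Kif23* by 1.73 ± 0.29 (limma, adjusted p = 0.000147). *Mki67* rose by 1.36 ± 0.40 (limma, adjusted p = 0.0196) and *Top2a* by 1.12 ± 0.36 (limma, adjusted p = 0.0299), and in young rTreg cells both were higher in mice 1 and 2 than in mice 3 and 4. The comparison differed between mice. The median of the members, kTreg minus rTreg within a mouse, was 1.20, 1.65 and 1.46 (log2) in mice 1, 3 and 4 and -0.16 in mouse 2, where 15 of the 52 members were higher in kTreg cells. The count also depended on single libraries. It was 8 without young mouse 3, 9 and 10 without the rTreg library of young mouse 3 or 4, 10 without the kTreg library of young mouse 1, 12 without young mouse 1, and 31 without the rTreg library of young mouse 2. With only these groups in the model it was 6.

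Young aTreg cells were lower than young rTreg cells for most members, with a median log2 fold change of -0.73 (all genes 0.02), and the young rTreg libraries varied widely. Only *Ube2c* was called lower with all libraries, beside 0.637% of all genes. *Ube2c* was 1285, 1119, 443 and 370.4 in young rTreg cells and 377, 125, 299.8 and 220.0 in young aTreg cells, and it fell by 1.56 ± 0.42 on the log2 scale (limma, adjusted p = 0.0358). *Kif15*, a spindle kinesin, was at the other end of the set, with a log2 fold change of 0.19. The number called was 0 without either of the rTreg libraries of mice 1 and 2 or any of the aTreg libraries of mice 2, 3 and 4. It was 4 and 11 without the rTreg library of young mouse 3 or 4, 6 without the kTreg library of young mouse 4, and 3 and 2 without the aTreg library of old mouse 2 or 4. Without whole mice it ran from 0 to 8. With the mouse as a replicate block it was 2, with edgeR 4 and with DESeq2 16.

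In old mice the highest subset was rTreg. Against old rTreg cells, 34 members were called lower in old kTreg cells and none higher, beside 3.09% of all genes called lower. The median log2 fold change was -1.43 (all genes 0.10), and 48 members did not overlap between the groups, against 7.65% of all genes in this direction. Old aTreg cells were lower still. Against old rTreg cells, 47 members fell, beside 3.78% of all genes, with a median of -1.98 (all genes 0.11), and 50 did not overlap, against 7.16% of all genes. The 5 members not called in that comparison were *Hmmr*, *Knl1*, *Kif4*, *Anln* and *Ccnf*. In every old mouse the median of the members was lower in kTreg than in rTreg cells, by -1.20, -1.32, -1.32 and -1.72, and lower in aTreg than in rTreg cells, by -2.08, -1.61, -2.15 and -2.07 (log2 differences within mice 1 to 4).

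Both comparisons share the old rTreg libraries, and their values are given side by side. *Aurka*, the gene of the Aurora kinase of the spindle poles, was 1221, 1071, 1893 and 1637 in old rTreg cells, 454, 333, 539.8 and 354 in old kTreg cells and 262, 298, 271 and 236 in old aTreg cells. It fell by 1.78 ± 0.35 on the log2 scale in kTreg cells (limma, adjusted p = 0.00193) and by 2.41 ± 0.35 in aTreg cells (limma, adjusted p = 1e-04). *Cdca8*, the gene of borealin in the passenger complex, was 1670.2, 1437, 2419 and 1637 in old rTreg cells and 675, 605, 781 and 489.7 in old kTreg cells. Its log2 fold change was -1.48 ± 0.29 in kTreg cells (limma, adjusted p = 0.00204), and -2.16 ± 0.29 in aTreg cells (limma, adjusted p = 5.7e-05). *Esco2*, whose product acetylates cohesin during replication, was 383, 378, 258 and 450.4 in old rTreg cells and 79.6, 123, 79 and 140.5 in old kTreg cells. Its log2 fold change of -1.81 ± 0.35 was the lowest of the set for kTreg cells (limma, adjusted p = 0.00202), and in aTreg cells it was -1.68 ± 0.35 (limma, adjusted p = 0.0038). For these 3 genes the old rTreg libraries all lay above those of old kTreg and old aTreg cells. *Incenp*, the scaffold gene of the passenger complex, had the smallest differences, at -0.38 ± 0.24 in kTreg cells (limma, adjusted p = 0.356, not called) and -0.93 ± 0.24 in aTreg cells (limma, adjusted p = 0.0159). The lowest value for aTreg cells belonged to *Cdc25c*, a further phosphatase of CDK1, at -2.91 ± 0.67 (limma, adjusted p = 0.00707). *Top2a* fell in both, with -1.23 ± 0.36 in kTreg cells (limma, adjusted p = 0.0295) and -1.84 ± 0.36 in aTreg cells (limma, adjusted p = 0.00195). Markers of some other cells were lower too in old aTreg than in old rTreg cells, with medians of -2.48 for macrophages and monocytes (0 of 8 genes above 0), -3.87 for neutrophils (0 of 7) and -3.71 for plasma cells (0 of 6). In old kTreg cells these medians were -0.23 (4 of 8 above 0), -1.55 (0 of 7) and -1.77 (0 of 6). Platelet genes had medians above 0, at 0.77 in aTreg and 0.94 in kTreg cells (2 of 3 genes in each). So had B cell genes in kTreg cells, at 0.53 (4 of 5). The part of such cells in the member values was not tested. *Mki67* fell in aTreg cells, with -2.05 ± 0.40 (limma, adjusted p = 0.00196), while in kTreg cells its -0.95 ± 0.40 was not called (limma, adjusted p = 0.14). The kTreg count was 10 without old mouse 4 and 20 without old mouse 3.

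Between old kTreg and old aTreg cells most members leaned the same way as in young mice, but none was called in limma, where 1.33% of all genes were called higher. Their median log2 fold change was 0.64 (all genes 0.01) and 50 members lay above 0. Of the alternatives, edgeR called 0 members and DESeq2 called 2. In 25 members the 4 kTreg libraries lay wholly above the 4 aTreg libraries, against 11.4% of all genes. *Mki67* had a log2 difference of 1.11 ± 0.40 (limma, adjusted p = 0.157), *Cdc25b* of 0.76 ± 0.21 (limma, adjusted p = 0.0546) and *Kif11* of 0.86 ± 0.38 (limma, adjusted p = 0.25). Macrophage and monocyte genes were higher in the same direction, with sums of 2171 to 3640 in old kTreg and 248 to 412 in old aTreg cells, a median of 3.11 and 8 of 8 genes above 0, of which 6 did not overlap. Their part in the member values was not tested. The ends were *Cdc25c*, at 1.23 ± 0.67, and *Esco2*, at -0.13 ± 0.35 (limma, adjusted p = 0.378 and 0.942). The kTreg library exceeded the aTreg library of its mouse in 51, 36, 50 and 48 members, mouse 2 being the one whose aTreg library stood apart. The count was 1 without that library, without the kTreg library of old mouse 4 or without the kTreg library of young mouse 2 or 4 or all of young mouse 2. It was also 1 with the mouse as a replicate block, and 24 when the model held only these groups. The share of all genes called in that smaller model is not given here, so the 24 cannot be set against it.

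With age, rTreg cells rose across the set. In old against young rTreg cells, 35 members were called higher and none lower, beside 4.12% of all genes called higher. All 52 log2 fold changes were above 0, with a median of 1.496 (all genes -0.08), and 33 members did not overlap, against 6.61% of all genes. The called members included 5 of the 6 kinases and checkpoint genes, all 4 of the passenger complex, 5 of 6 kinesins, 5 of 7 spindle factors and 4 of 5 genes of chromosome structure. Of the other roles, 4 of 8 entry genes, 4 of 9 centromere and kinetochore genes, 2 of 3 cytokinesis genes, 1 of 2 partners of the anaphase-promoting complex and 1 of 2 transcription factors were called. *Prc1* had the largest rise, from 563, 785, 227 and 290.1 in young to 1583, 1384, 1864 and 1989 in old rTreg cells, or 2.03 ± 0.32 (limma, adjusted p = 0.000371). *Cdc25b* went from 1810.2, 2315, 1474 and 1863 to 4908, 6342, 6421 and 5112, or 1.62 ± 0.21 (limma, adjusted p = 4.37e-05). *Racgap1* went from 1395, 1480.0, 622 and 711 to 3362, 3251, 2439 and 2612, or 1.56 ± 0.24 (limma, adjusted p = 0.000302). Each of the old libraries lay above each of the young for these genes. *Mki67* rose by 1.60 ± 0.40 (limma, adjusted p = 0.0167) and *Top2a* by 1.45 ± 0.36 (limma, adjusted p = 0.0153), but for *Mki67* young mouse 2 (1231) exceeded old mouse 1 (1055). *Plk1* rose by 1.56 ± 0.37 (limma, adjusted p = 0.0112), *Mybl2* by 1.84 ± 0.38 (limma, adjusted p = 0.00437) and *Birc5* by 1.40 ± 0.39 (limma, adjusted p = 0.0339). *Stmn1*, with 0.92 ± 0.33 (limma, adjusted p = 0.0917), and *Ndc80*, the lowest of the set with 0.61 ± 0.34 (limma, adjusted p = 0.316), were not called.

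Genes of some other cells were also higher in the old rTreg libraries. The median log2 fold change was 1.29 for macrophages and monocytes (6 of 8 genes above 0, none called). It was 0.80 for neutrophils (5 of 7), 3.12 for plasma cells (6 of 6), 1.72 for NK cells (4 of 4) and 1.88 for erythroid cells (5 of 7). B cell genes (-1.48, 0 of 5 above 0) and CD8 T cell genes (-2.19, 0 of 2) were lower. Macrophage and monocyte genes, 8 in number, summed to between 10210 and 26688 in them, against 609, 9059, 1379 and 985 in young rTreg cells. Plasma cell genes summed to between 3420 and 9792, against 147, 3283, 436 and 117. The neutrophil sum was 49, 15704, 19280 and 222 in the old rTreg libraries, and the platelet sum was between 451 and 981 against 42 to 74. The platelet genes had a median log2 fold change of 0.017, with 2 of 3 above 0. Of these, *Itga2b* lay at 336 to 964 against 21.6 to 34.3. The group medians of *Pf4* and *Ppbp* were 15.7 and 26.1 against 13.4 and 20.3. Among the defining genes, *Lyz2* reached 9380 to 25200 in old rTreg cells, while *C1qa* lay between 0 and 48.6. The part of these cells in the higher member levels was not tested. The summed level of the members was 70489, 74705, 86276 and 74931 in the 4 old rTreg libraries and 42613, 48668, 20418 and 17730 in the 4 young ones. The library with the highest member sum in each group, that of old mouse 3 and that of young mouse 2, also had the highest macrophage, plasma cell and neutrophil sums of its group. Young mouse 1 had a member sum of 42613 with macrophage and plasma cell sums of 609 and 147. Old mice 2 and 4 had member sums of 74705 and 74931. Their macrophage sums were 10224 and 10210, their plasma cell sums 5147 and 3420, and their neutrophil sums 15704 and 222. The number called was 42 without young mouse 2. It was 11 without young mouse 3, 12 and 14 without the rTreg library of young mouse 3 or 4, 17 without old mouse 4, and 14 when the model held only the groups compared.

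Fewer members were called with age in the other subsets. In aTreg cells *Cdc25b* alone was called, higher in the old, beside 1.85% of all genes called higher, and the median of the members was 0.15. *Cdc25b* was 2092, 3233, 2237 and 1482 in old aTreg cells against 962, 1439, 1094 and 1071 in the young, a log2 difference of 0.95 ± 0.21 (limma, adjusted p = 0.0116). It was not called without young mouse 1, without old mouse 2 or without the aTreg library of old mouse 2. The ends of the set were *Anln*, at 1.02, and *Kif15*, at -0.53, and neither was called. In kTreg cells the members leaned lower in the old, with a median of -0.90 (all genes 0.12). The called members were *Kif23*, *Esco2* and *Bub1b*, all lower, beside 0.235% of all genes called lower, and 24 members did not overlap, against 3.88% of all genes. *Kif23* went from 1437, 807, 882 and 1838 to 402, 425, 347 and 378, with a log2 fold change of -1.59 ± 0.29 (limma, adjusted p = 0.00483). *Bub1b*, the gene of the checkpoint kinase BUBR1, went from 1652, 888, 1258 and 2739 to 687, 591, 528 and 450.3, or -1.43 ± 0.35 (limma, adjusted p = 0.0408). Its call held in 20 of 41 alternatives, and the adjusted p of limma reached 0.177 without old mouse 4. *Esco2* went from 545, 269, 374 and 307 to 79.6, 123, 79 and 140.5, or -1.81 ± 0.35 (limma, adjusted p = 0.0107). The groups did not overlap for any of the 3. *Ccnf* was at the opposite end, at 1.35 ± 1.33 (limma, adjusted p = 0.618), through its value of 0 in young mouse 4. The number called in kTreg cells was 13 without young mouse 2, 8 and 5 without its kTreg or rTreg library, 1 without old mouse 1, 17 with DESeq2 and 0 when the model held only these groups.

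The change with age in the differences between the subsets was tested directly, as the old minus young difference of each contrast. For kTreg against rTreg cells, 39 members were called lower and none higher, beside 2.03% of all genes, and all 52 lay below 0, with a median of -2.31 (all genes 0.21). The medians behind it were 0.86 in young mice and -1.43 in old mice. The young difference varied, with 20 members called higher and a within-mouse median of -0.16 in young mouse 2. This contrast tests a change in the size of the difference, not a reversal of order. By role, the 39 members called were 5 of 8 entry genes, 5 of 6 kinases and checkpoint genes, all 4 of the passenger complex and 6 of 9 centromere and kinetochore genes. They also included 5 of 6 kinesins, 5 of 7 spindle factors, 1 of 3 cytokinesis genes and both partners of the anaphase-promoting complex. All 5 genes of chromosome structure and 1 of 2 transcription factors were called too. *Kif23* had a difference of -3.06 ± 0.40 (limma, adjusted p = 0.000352), *Racgap1* of -2.49 ± 0.34 (limma, adjusted p = 0.000532) and *Cdc25b* of -2.07 ± 0.29 (limma, adjusted p = 0.000596). The lowest was *Kif11*, at -3.27 ± 0.53 (limma, adjusted p = 0.00159), and the highest *Ccnf*, at -0.21 ± 1.88. *Mki67* and *Top2a* stood at -2.31 ± 0.56 (limma, adjusted p = 0.0262) and -2.35 ± 0.50 (limma, adjusted p = 0.0105). The count was 20 without young mouse 3 and 21 without old mouse 4, and 43 without young mouse 2.

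For kTreg against aTreg cells, *Kif23* alone was called, with an old minus young difference of -2.03 ± 0.40 (limma, adjusted p = 0.0398), beside 0.114% of all genes. The median of the members was -1.14 (all genes 0.14), and *Cenpf* had the lowest value, at -2.19 ± 0.60 (limma, adjusted p = 0.207). The call was lost without any of the 4 young aTreg or 4 old kTreg libraries, the kTreg library of young mouse 1, 3 or 4, the aTreg library of old mouse 1, 2 or 4 or the rTreg library of old mouse 2, and without any whole mouse other than young mouse 2. It held in 19 of 41 alternatives, and 2 members were called with the mouse as a replicate block. For aTreg against rTreg cells, *Racgap1* (-1.37), *Mybl2* (-2.14) and *Kif15* (-2.11) were called lower, beside 1.05% of all genes. The median of the members was -1.22 (all genes 0.10). With the mouse as a replicate block 5 members were called there. The count was 0 or 1 without any library of old mice or of young aTreg cells, 0 without the rTreg library of young mouse 3 or 4 or the kTreg library of young mouse 3, and 0 with edgeR. It was 5 and 11 without the rTreg library of young mouse 1 or 2, and 9 without the kTreg library of young mouse 4.

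Other genes of the cell cycle gave context from lists written by function. Among 40 further mitotic genes, 17 were called higher in young kTreg than in young aTreg cells (3.46% of all genes) and none lower, with *Spag5*, a spindle gene, at 2.08 and *Cep55*, a gene of the final separation of daughter cells, at 2.198. In old against young rTreg cells 12 of them were called higher (4.12% of all genes), *Spag5* at 2.32 and *Kif22* at 1.87, and in old kTreg against old rTreg cells 13 were called lower (3.09% of all genes), *Kif22* at -1.69. Of 34 S phase and replication genes, 4 were called in young kTreg against aTreg cells, with a median of 0.23. They were *Rrm2*, the small subunit gene of ribonucleotide reductase, at 1.48 (limma, adjusted p = 0.000876), *Lig1*, a DNA ligase gene, at 0.83 (limma, adjusted p = 0.0134) and 2 others. For the same comparison and direction, the same share of all genes applies to these and the following lists. Differences between lists were not tested. Old rTreg cells had 12 of the 34 called higher than young rTreg cells, with a median of 0.68, among them *Pole*, the gene of the leading-strand polymerase, at 1.82. Old kTreg cells had 16 called lower than old rTreg cells, with a median of -0.73. *Rrm2* levels were 4820 ± 667 in old rTreg, 4236 ± 1428 in young kTreg and 1941 ± 242 in old kTreg cells (SD, n = 4).

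Of 18 G1/S and E2F genes, 4 were called higher in young kTreg than in young aTreg cells, *E2f2* at 0.93 and *Ccne1*, the cyclin E1 gene, at 1.01 among them, and 4 were higher in old than in young rTreg cells, with *E2f8* at 2.19. Among 13 DREAM and MuvB genes, *Rbl2*, which codes for the pocket protein p130 of the repressive complex, was called higher in 4 comparisons. These were young kTreg against young aTreg cells (1.04), young kTreg against young rTreg cells (2.07), young aTreg against young rTreg cells (1.03) and old kTreg against old rTreg cells (1.28). Of the 16630 genes tested, 575, 1371, 451 and 960 were called higher in these comparisons, in that order. *Rbl1*, of the same list, was called higher in young kTreg cells against young aTreg (0.64) and young rTreg cells (0.60). *Rbl2* levels were 8756 ± 397 in young kTreg and 7568 ± 336 in old kTreg cells (SD, n = 4). They were 2157 ± 639 in young rTreg, 3282 ± 1047 in old rTreg, 4364 ± 1114 in young aTreg and 4546 ± 825.5 in old aTreg cells. Of 20 genes of the anaphase-promoting complex and its inhibitors, *Mad2l1* alone was called in young kTreg against aTreg cells (0.90), a share near that of all genes. Of 19 condensin and cohesin genes, 5 were higher in young kTreg than in young aTreg cells, *Sgo2a* at 2.07 among them. In old against young rTreg cells *Ncaph* and *Ncapg*, condensin subunit genes, rose by 1.56 and 1.46, and *Smc4*, a core subunit gene of condensin that interphase cells also express, had a log2 fold change of -0.80.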

How the data were processed

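Bulk RNA-seq of 24 splenic Treg libraries (SMART-Seq v4) was used. Per the labels, the authors aligned reads with HISAT2 2.2.1 to GRCm39, used SAMtools 1.13, counted reads per gene with HTSeq 1.99.2 and used DESeq2 1.44.0. The deposited values are a normalised signal, reads divided by 1 size factor per library. The annotation release, strand setting and treatment of multiply mapping reads are not given in the sources used here. All columns were mapped to samples, and 0 were left over. Every value was a whole multiple of the value of 1 read (within 0.001 reads), which gave the reads used for the alternatives. The lowest sum of reads of a listed gene was 100.

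Symbols and positions came from a GRCm39 annotation, which held 17353 of the 17464 identifiers, and the other 111 kept theirs. The 16630 genes that reached 10 in 4 or more libraries were fitted with limma 3.58.1 (R 4.3.3) on log2(value + 1) with a mean-variance trend, in a model of 6 groups, for 12 contrasts. Changes of genes with low values are understated on this scale. All groups share 1 estimate of the spread. Calls needed p under 0.05 after Benjamini-Hochberg adjustment, with a fold over 1.5. The members and lists were chosen with earlier results of these data known, so no set test was made. Named genes were *Mki67* and *Top2a*, the member of highest level per kilobase in each role, the 3 called members of smallest p per contrast and direction, the ends of the fold changes, and members of counts of 5 or fewer. Promoter windows came from RefSeq (GRCm38.p6, another build than the files), matched by symbol. Lists by function held further cell-cycle genes, Treg identity genes and markers of other cells.

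Libraries were paired by mouse, since the design text has all subsets sorted from each animal. Deviations from group means correlated between libraries of a mouse with medians of 0.153 (rTreg and aTreg), 0.0911 (rTreg and kTreg) and 0.115 (aTreg and kTreg), against -0.0331, -0.034 and -0.0507 between mice. The consensus correlation was 0.062.

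The fit was tested on simulated data with 17464 genes. For young kTreg against aTreg it recovered 29% of genes changed by a log2 fold of 1 and 61% of those changed by 2, with 4.26% of its calls unchanged genes. For old against young rTreg it recovered 32% and 60%, and for the age difference of kTreg against rTreg 12% and 40%. With no gene changed it made 0 calls. Alternatives were a replicate block for the mouse, a model of only the groups compared, a pseudocount of 0.5 or 5, a filter at 50 or none, TMM factors, edgeR 4.0.16 and DESeq2 1.42.0 on the reads, and leaving out each library and each mouse. Python 3.11.15 with numpy 2.4.6, pandas 2.3.3 and matplotlib 3.10.9 made the tables and plots.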

Additional observations from a re-analysis of the deposited data

Results flagged for a closer look

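Among 168 groups of 4 libraries, formed by the named members and the share of reads in the 6 groups, 13 had a library far from the other 3, or 7.74%, where chance gives about 1 in 20. Young kTreg mouse 1 was high for *Ccnb2* (2802) and *Cdc20* (2207), and young kTreg mouse 2 was low for *Cdc25b* (3771). In old aTreg cells mouse 2 was high for the share of reads taken by the members (0.132%) and for *Prc1* (563), *Ube2c* (726) and *Stmn1* (4445), and this is the library with the lowest Treg identity sum. In old rTreg cells mouse 3 was high for *Ccnb2* (2787), *Stmn1* (9024) and *Anln* (409), and its macrophage and plasma cell sums, 26688 and 9792, were the highest of that group. In young aTreg cells mouse 2 was low for *Cdca8* (391.97) and mouse 1 high for *Cenpf* (140.4). In old kTreg cells mouse 3 was high for *Spc24* (377). These values are described as they stand, and what set these libraries apart was not tested.

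The interaction test of old minus young differences was passed by most members in 1 of the subset contrasts and by few in the others. For kTreg against rTreg cells 39 members passed it, beside 2.03% of all genes, led by *Kif23* (-3.06), *Racgap1* (-2.49) and *Cdc25b* (-2.07). For aTreg against rTreg cells 3 passed, beside 1.05% of all genes, *Racgap1* (-1.37), *Mybl2* (-2.14) and *Kif15* (-2.11). Their calls held in 14, 14 and 11 of 41 alternatives. For kTreg against aTreg cells 1 passed, beside 0.114% of all genes, *Kif23* (-2.03), whose call held in 19 of 41 alternatives. The contrasts share libraries and are not independent of each other.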

How the results depend on the processing

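No count of called members changed direction under any alternative, and the median of the members kept its direction in 492 of 492 alternatives. Many of these could not have moved it, since leaving out a library outside a contrast leaves its group means as they were. The size of the median moved by over 1.5 times without single libraries or mice in young aTreg against rTreg (-0.37 to -0.97) and old against young aTreg (0.037 to 0.21). For single named genes, 1368 alternatives kept the call and 190 lost it, with none reversed. Leaving out a library outside the contrast could change these calls only through the shared estimate of the spread. The counts of young kTreg against aTreg (31 to 49 without single libraries or mice) and old aTreg against rTreg (39 to 51) stayed within 1.5 times under all alternatives run. With only the groups of the contrast in the model, young kTreg against rTreg fell to 6, old against young rTreg to 14, old against young kTreg and the age difference of aTreg against rTreg to 0, while young aTreg against rTreg went to 2 and old kTreg against aTreg to 24. With DESeq2 the counts were 2 for old kTreg against aTreg, 16 for young aTreg against rTreg, 17 for old against young kTreg, and 6 for the age differences of kTreg against aTreg and of aTreg against rTreg. With edgeR they were 4 for young aTreg against rTreg, 2 for the age difference of kTreg against aTreg and 0 for that of aTreg against rTreg, which was also 0 with TMM factors. With the replicate block, and likewise with a filter at 50, they were 2 for young aTreg against rTreg, 1 for old kTreg against aTreg, 2 for the age difference of kTreg against aTreg and 5 for that of aTreg against rTreg. A pseudocount of 5 gave 1, 2 and 5 for the last 3 of these. The block moved no other count by over 1.5 times. Without single libraries or mice, counts ranged from 8 to 31 for young kTreg against rTreg, 0 to 11 for young aTreg against rTreg, 0 to 1 for old kTreg against aTreg, 10 to 45 for old kTreg against rTreg, 11 to 47 for old against young rTreg, 0 to 1 for old against young aTreg, 1 to 13 for old against young kTreg, and 0 to 2, 20 to 50 and 0 to 11 for the age differences of kTreg against aTreg, kTreg against rTreg and aTreg against rTreg. The causes were not tested, and the share of all genes called under each alternative is not given here. With 4 mice a group, simulated log2 folds of 1 were recovered in 29% of genes. The genes changed were drawn from all that passed the filter, so this share need not hold for the members.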
